A study of Rattus norvegicus with 22 samples.

Results

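Lipopolysaccharide sensing and its NF-κB feedback were followed in rat spinal cord through 6 genes, Lbp, Cd14, Tlr2, Tlr4, Myd88 and Nfkbia. The genes were taken by symbol from the table of array values, where each has 1 probe set, so that 6 of the 31042 tested probe sets, or 6 of 14217 genes with a single symbol, are described. All 6 entered every test without a filter on signal. The values are array signals on the log2 scale, so a difference of 1 is a doubling.

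The series holds 22 arrays of rat cord, 1 per sample, in 8 groups. Normal cord (3 arrays) and cord after laminectomy, the removal of bone over the cord (3 arrays), are uninjured here in the sense of not contused. The other 16 arrays are of cord contused at thoracic level 10 by a 10 g weight with a 2.5 mm tip falling 25 mm, and taken 24 h later. Of these, 2 had no treatment. Another 2 had clenbuterol, an agonist of β2-adrenergic receptors (150 mg/kg into the peritoneum, 20 min after injury), and 3 had X-rays (10 Gy, 20 min after). Tempol, a nitroxide that removes superoxide (275 mg/kg, 20 min after), was given in 3. Buthionine sulfoximine (BSO), which blocks glutathione synthesis (150 mg/kg, 24 h before injury), was given in 3, and tempol together with BSO in the last 3. The labels give no strain, sex or age, no time of collection for the uncontused groups, and no statement that each array is a separate animal. Injury and any difference in collection time cannot be told apart. The p-values therefore measure the spread between these arrays. The clenbuterol dose is printed as labelled, although it is very high for this drug.

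As background, lipopolysaccharide of bacterial walls is lifted out of aggregates by the plasma protein LBP and passed to CD14, a receptor without a signalling domain, which hands it to TLR4. TLR2 senses bacterial lipoproteins, also with the help of CD14, and both receptors respond to molecules released from damaged tissue. Through the adaptor MyD88 they start a kinase cascade that destroys IκBα, the product of Nfkbia, and so frees NF-κB. NF-κB then switches Nfkbia on again, which closes a negative feedback loop and makes its RNA a common readout of recent NF-κB activity. In the cord these receptors are carried mostly by microglia and infiltrating myeloid cells. In bulk tissue a change in the number of such cells and a change in RNA per cell cannot be told apart.

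The tissue label was borne out by high signals of the myelin gene Mbp (mean 15.16 over all arrays), the astrocyte filament gene Gfap (13.86) and the neuronal filament gene Nefl (11.23). A pair of arrays stood apart from the rest. Normal 1 and laminectomy 2 had median correlations of 0.685 and 0.667 to the other arrays, against 0.725 to 0.785 for the other 20. Their hybridization spikes, control RNAs added to every sample before hybridization, were also the strongest (13.02 and 14 against 10.81 to 12.8). The log2 ratio of 3′ to 5′ signal, which rises as RNA is degraded, was 1.49 for Gapdh on normal 1 (-0.2 to 0.85 on the other 20) and 1.38 for actin on laminectomy 2 (-0.06 to 1.06). The other ratio of each array, 0.55 for actin on normal 1 and 0.76 for Gapdh on laminectomy 2, lay within these ranges. Injury differences printed for the 6 genes that gain or lose a call or move by over 1.5 times when both are left out are given both ways, here or among the processing alternatives.

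**Figure D1:**
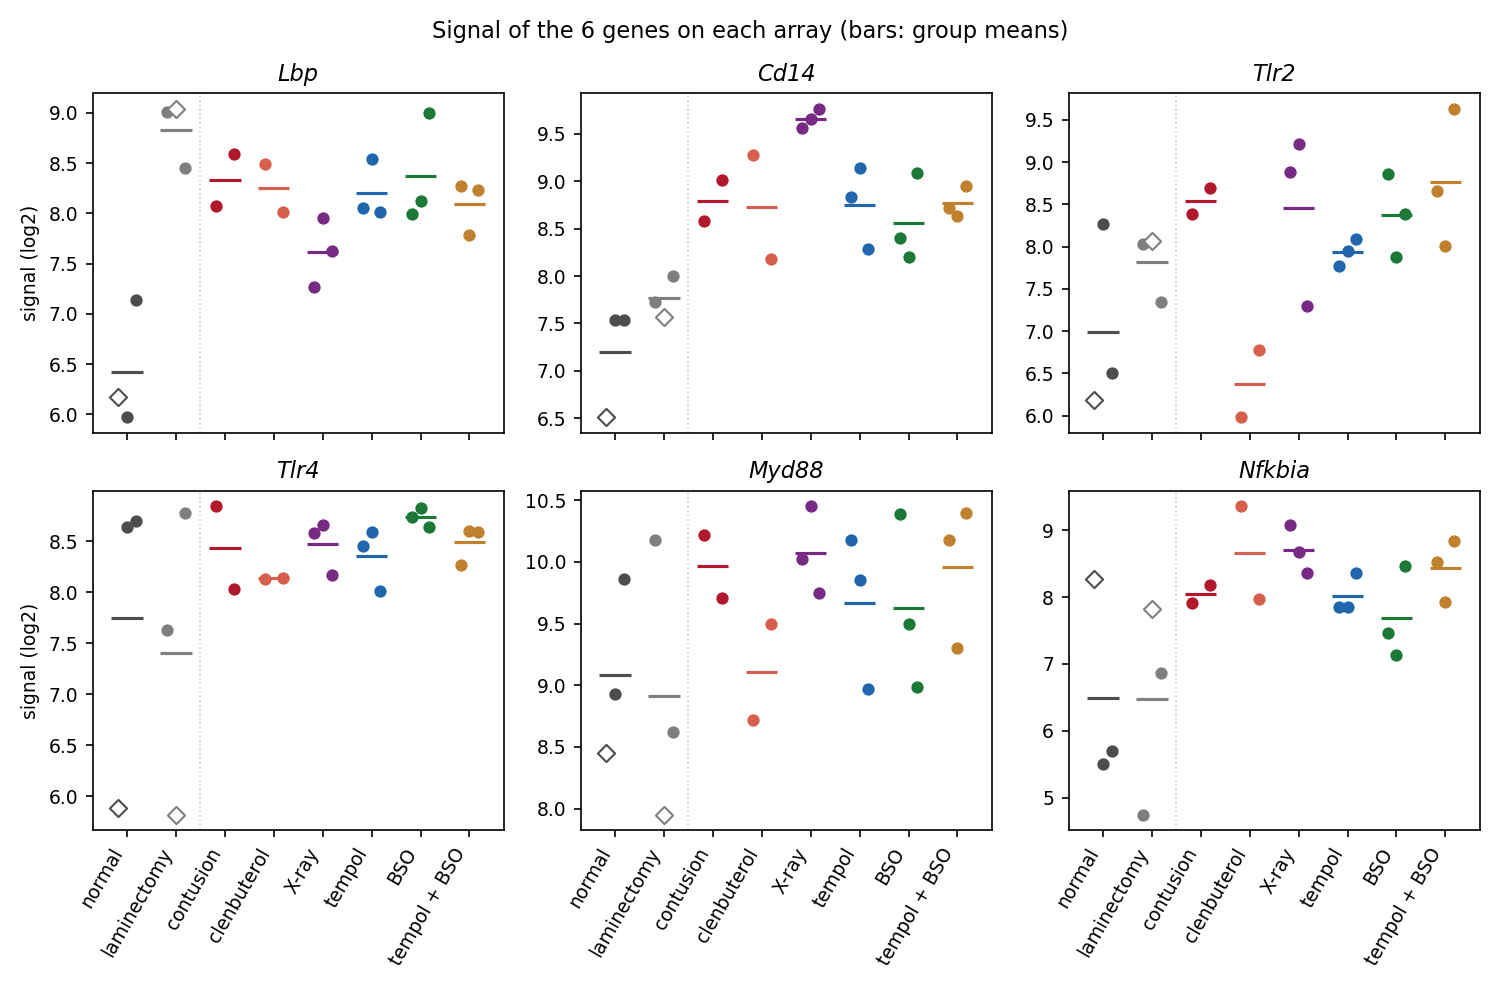
Signal on the log2 scale (y axis) of each gene on every array, by group (x axis); points are arrays, bars are group means, open diamonds are normal 1 and laminectomy 2, and the dotted line separates uncontused from contused cord. All 16 contused arrays lie above all 6 others for Cd14, Lbp is high after laminectomy already, and the 2 lowest Tlr4 points are the open diamonds.

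Of the 6 genes, Cd14 rose with contusion. In signal units the 3 normal arrays read 91.1, 185.7 and 186.5, and the laminectomy arrays 211.8, 189.6 and 256.0. The untreated contusion arrays read 382.7 and 516.7. Over all 16 contused arrays the signal ran from 290.2 through a median of 474.8 to 866.2. The lowest contused array thus lay above the highest uncontused one, and the groups did not overlap. Only 0.0709% of all probe sets separated the 16 arrays from the 6 in this way. With each group weighted equally, the contused groups exceeded the uncontused ones by 1.40 ± 0.25 (standard error; 2.63-fold, 95% interval 0.88 to 1.92), with adjusted p = 0.0146 in limma. It was the only 1 of the 6 genes past the threshold of 0.05 in a comparison where 0.319% of all probe sets passed. Without normal 1, the array with the lowest Cd14 signal, the difference was 1.22 (adjusted p = 0.0509), and with laminectomy 2 left out as well it was 1.17 (adjusted p = 0.108). Leaving out uncontused arrays cannot undo the separation of the 16 contused arrays, so the separation adds no support here.

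None of the differences of Cd14 between single uncontused groups and untreated contusion passed. Contusion exceeded laminectomy by 1.03 ± 0.47 (adjusted p = 0.925) and normal cord by 1.60 ± 0.47 (adjusted p = 0.401). Laminectomy exceeded normal cord by 0.57 ± 0.42 (adjusted p = 0.966; 0.32 without normal 1 and laminectomy 2), although all 3 laminectomy arrays lay above all 3 normal arrays, as they did for 4.43% of all probe sets. Over all 6 contused groups, in comparisons added after the values were seen, the difference from normal cord was 1.68 ± 0.33 (adjusted p = 0.0268) and that from laminectomy 1.11 ± 0.33 (adjusted p = 0.44). In the first of these 2 of the 6 genes passed, Lbp and Cd14, where 0.377% of all probe sets did, and 4 had unadjusted p under 0.05, where 8.97% did. All 16 contused arrays lay above the 3 laminectomy arrays for Cd14 alone of the 6 genes, and for 0.177% of all probe sets. The call of Cd14 against normal cord was lost without normal 1 (1.34, adjusted p = 0.209), normal 2 (1.85, adjusted p = 0.0617), normal 3 (1.85, adjusted p = 0.0611) or normal 1 and laminectomy 2 together (1.34, adjusted p = 0.194).

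Lbp, the carrier upstream of Cd14, followed a different course. It was low in normal cord only, at 71.9, 62.7 and 141.3 signal units. After laminectomy the arrays read 515.8, 525.1 and 349.9, and in untreated contusion 269.4 and 386.2. The 16 contused arrays ran from 154.5 through 267.5 to 513.1, all of them above the 3 normal arrays and 12 of them below the lowest laminectomy array. Separation of the 16 contused from the 3 normal arrays held for 0.635% of all probe sets, and for 2 of the 6 genes, Lbp and Cd14.

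The level of Lbp after laminectomy exceeded that in normal cord by 2.41 ± 0.42 (5.3-fold, 95% interval 1.52 to 3.29, adjusted p = 0.0592 in limma), just short of the threshold, which 0.00644% of all probe sets passed. It passed under 5 of the alternatives, for instance with a filter on low signal (adjusted p = 0.0107), and missed by more without laminectomy 2 (2.30, adjusted p = 0.315), without normal 1 and laminectomy 2 (2.17, adjusted p = 0.523) or with only these 2 groups in the fit (adjusted p = 1.0). The filter left the difference at 2.41 and meant that fewer probe sets were adjusted for. Contusion without treatment differed from laminectomy by -0.50 ± 0.47 (adjusted p = 0.957) and from normal cord by 1.91 ± 0.47 (adjusted p = 0.242). In these comparisons 0.00322% and 0.0483% of all probe sets passed, and none of the 6 genes did by limma, with 1 (Cd14) and 3 (Lbp, Cd14 and Tlr2) of them at unadjusted p under 0.05, which 5.38% and 6.65% of all probe sets reached. Over the 6 contused groups Lbp was 1.72 ± 0.33 above normal cord (3.29-fold, adjusted p = 0.0233), a call that was lost without normal 1 (1.59, adjusted p = 0.134), without normal 2 (1.49, adjusted p = 0.16) and when normal 1 and laminectomy 2 were both left out (1.59, adjusted p = 0.13). Against laminectomy the contused groups stood at -0.69 ± 0.33 (95% interval -1.37 to -0.00, adjusted p = 0.642). That comparison had 0.0129% of all probe sets past the threshold, and 3 of the 6 genes (Lbp, Cd14 and Nfkbia) at unadjusted p under 0.05, where 7.75% of all probe sets were. With laminectomy and normal cord averaged, contused against all uncontused groups gave only 0.52 ± 0.25 for Lbp (adjusted p = 0.489).

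**Figure D2:**
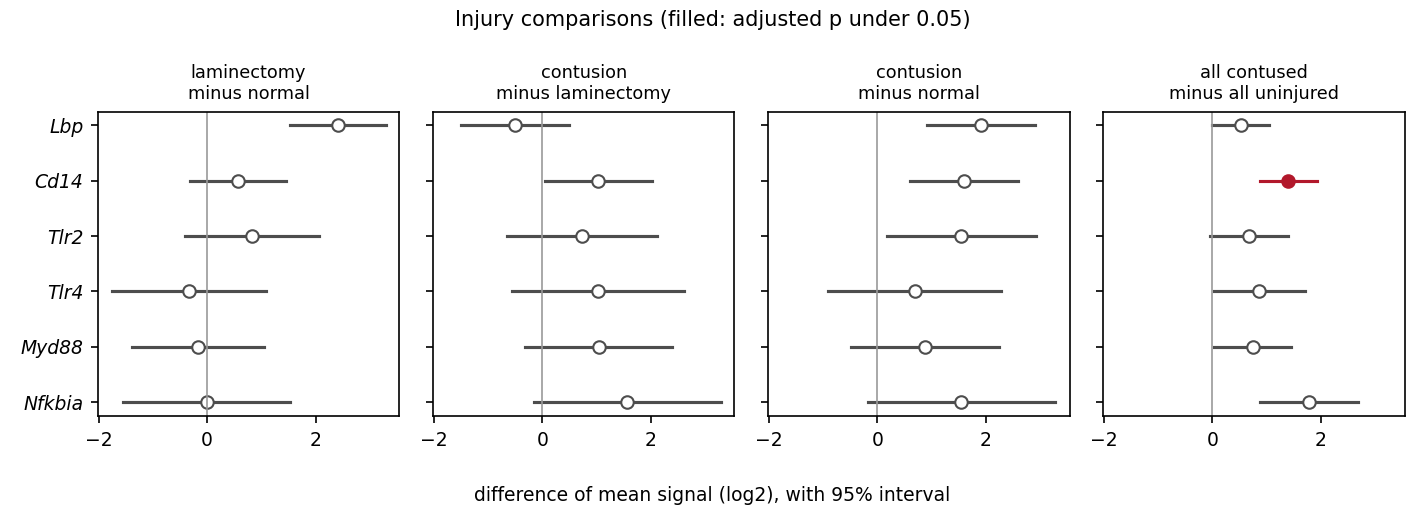
Difference of mean log2 signal (x axis) for each gene (y axis) in the 4 injury comparisons, with 95% intervals from the fit; filled red points have adjusted p under 0.05. Only Cd14 in contused against uncontused groups (1.40) is filled, and Lbp has its largest difference after laminectomy (2.41).

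Nfkbia, the feedback inhibitor of NF-κB, had the largest difference of the 6 genes between contused and uncontused groups, but a wide spread among the uncontused arrays. Its promoter is shown first because κB elements there carry the feedback, and that of Tlr2 beside it because these 2 were the only promoters among the 5 of the 6 genes with an entry in the RefSeq table (build GRCr8) that hold a match to the κB consensus. Matches were sought on both strands in the 250 bases before and 50 bases after each gene's start, and 4.2% of 33469 such windows hold one. Capitals mark the match, which in Nfkbia lies 31 to 22 bases before the start (window chr6:78597023-78597322, minus strand). In Tlr2 a pair of overlapping matches runs from 206 to 196 bases before the start (window chr2:171504508-171504807, minus strand). The windows of Cd14, Tlr4 and Myd88 hold no such letters. A match is a description of the letters and not a shown binding site.
Nfkbia: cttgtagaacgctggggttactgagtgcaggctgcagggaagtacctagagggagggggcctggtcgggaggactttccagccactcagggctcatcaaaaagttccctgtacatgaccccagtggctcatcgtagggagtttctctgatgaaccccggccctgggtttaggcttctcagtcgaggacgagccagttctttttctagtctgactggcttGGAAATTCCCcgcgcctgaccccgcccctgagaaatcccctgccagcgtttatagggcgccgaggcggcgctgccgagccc
Tlr2: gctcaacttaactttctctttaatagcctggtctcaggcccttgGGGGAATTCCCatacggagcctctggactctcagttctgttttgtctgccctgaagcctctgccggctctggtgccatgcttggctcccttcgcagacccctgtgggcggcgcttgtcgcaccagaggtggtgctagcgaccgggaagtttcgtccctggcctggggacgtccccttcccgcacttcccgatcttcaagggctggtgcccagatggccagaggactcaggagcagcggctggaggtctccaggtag

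The Nfkbia signal was 308.7, 45.2 and 52.1 in normal cord and 26.7, 227.8 and 116.4 after laminectomy. It was 239.8 and 289.6 in untreated contusion, and over all 16 contused arrays it ran from 141.0 through 308.6 to 658.4. The highest uncontused arrays were normal 1 and laminectomy 2, the pair that stands apart, and 14 of the 16 contused arrays lay above all 3 laminectomy arrays, while 8 lay above all 6 uncontused ones. The difference was 1.77 ± 0.43 (3.42-fold, 95% interval 0.87 to 2.68), which missed the threshold (adjusted p = 0.0984 in limma). Without normal 1 it was 2.22 (adjusted p = 0.0231), and with laminectomy 2 left out as well 2.56 (adjusted p = 0.00536). It also passed with array weights (2.07, adjusted p = 0.0201), with the spikes as a covariate (2.06, adjusted p = 0.0261) and with a filter on low signal (adjusted p = 0.0402). The filter left the difference at 1.77 and meant that fewer probe sets were adjusted for. These were the only 5 of 32 alternatives in which Nfkbia passed by limma. Over all of them its adjusted p ran from 0.00536 to 0.229. With 1 array left out the difference ran from 1.34 to 2.22. Without both arrays Nfkbia rather than Cd14 was the 1 gene past the threshold.

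Laminectomy and normal cord did not differ in Nfkbia beyond the spread (-0.01 ± 0.74, 95% interval -1.55 to 1.53). Contusion exceeded laminectomy by 1.56 ± 0.82 (adjusted p = 0.944) and normal cord by 1.55 ± 0.82 (adjusted p = 0.784; 2.44 without normal 1 and laminectomy 2). The 6 contused groups exceeded normal cord by 1.77 ± 0.57 (adjusted p = 0.271) and laminectomy by 1.78 ± 0.57 (adjusted p = 0.492), the first of which passed once normal 1 and laminectomy 2 were left out (2.66, adjusted p = 0.0259).

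The signalling receptor gene Tlr4 gave no change that held. Its signal was 59.2, 399.2 and 415.6 in normal cord, 198.5, 56.5 and 437.5 after laminectomy, and 458.0 and 261.7 in untreated contusion. The 16 contused arrays ran from 257.5 through 383.8 to 458.0, a narrow range (SD 0.28 on the log2 scale against 1.40 in the 6 uncontused arrays). The lowest 2 values of the series, 59.2 and 56.5, were those of normal 1 and laminectomy 2. The difference between contused and uncontused groups was 0.86 ± 0.40 (95% interval 0.02 to 1.70, adjusted p = 0.468) with these arrays and -0.00 (adjusted p = 1.0) without them. Against normal cord untreated contusion stood 0.69 ± 0.76 higher (adjusted p = 0.95), and -0.23 without normal 1.

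The adaptor gene Myd88 had overlapping values throughout. The normal arrays read 350.3, 487.8 and 932.3, the laminectomy arrays 1159.1, 246.5 and 392.8, and the contusion arrays 1189.7 and 836.3. The 16 contused arrays ran from 422.3 through 890.6 to 1399.1, and 6 of them lay above the highest uncontused array, laminectomy 1. The contused groups stood 0.74 ± 0.34 higher (95% interval 0.02 to 1.45, adjusted p = 0.467), and 0.34 without normal 1 and laminectomy 2 (adjusted p = 0.901). Contusion against laminectomy gave 1.05 ± 0.65 (adjusted p = 0.948) and against normal cord 0.88 ± 0.65 (adjusted p = 0.88), and both differences were 0.56 without these arrays. Laminectomy against normal cord gave -0.17 ± 0.58 (adjusted p = 0.998).

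Tlr2, the lipoprotein receptor gene, was the one whose level varied most among the treated groups. Normal cord read 72.9, 308.8 and 91.2, laminectomy 260.9, 268.3 and 163.5, and untreated contusion 335.1 and 414.5, above all 3 normal arrays, as for 3 of the 6 genes and for 10.6% of all probe sets. The 16 contused arrays ran from 63.2 through 303.7 to 794.3 and straddled the uncontused ones, with 8 above the highest of them and 1 below the lowest. Contusion exceeded normal cord by 1.55 ± 0.66 (adjusted p = 0.664) and laminectomy by 0.73 ± 0.66 (adjusted p = 0.956). The contused groups exceeded the uncontused ones by 0.68 ± 0.35 (95% interval -0.05 to 1.40, adjusted p = 0.519).

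All 6 genes were higher in contused than in uncontused groups, with a median difference of 0.80 against 0.01 over all genes, and 4 of the 6 had unadjusted p under 0.05 where 10.4% of all probe sets did. Without normal 1 and laminectomy 2 the count was 5 higher and 1 lower, with a median of 0.52 against -0.03 over all genes. Then 2 of the 6, Cd14 and Nfkbia, had unadjusted p under 0.05 (7.13% of all probe sets) and 1, Nfkbia, passed (0.254%). Tlr4 (-0.00) and Myd88 (0.34) were no longer among them. After laminectomy alone 3 were higher and 3 lower than in normal cord (median 0.28 against -0.01 over all genes), with 1 at unadjusted p under 0.05, Lbp, where 5.59% of all probe sets were. A moderated F test over all 8 groups gave unadjusted p under 0.05 for Lbp (0.00109), Cd14 (0.000782), Tlr2 (0.0199) and Nfkbia (0.0366), which 7.18% of all probe sets reached. After adjustment 0 of the 6 genes passed it by limma (adjusted p from 0.232 to 0.944), as did 0.0612% of all probe sets.

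The treated groups were set against untreated contusion, to ask whether any treatment altered these genes 24 h after injury. The 5 comparisons share the same 2 untreated arrays. None of the 30 differences (6 genes in 5 treatments) passed, with adjusted p from 0.787 to 1.0 and 1 of them at unadjusted p under 0.05. The background was 1 probe set past the threshold for clenbuterol (0.00322%) and 0.0% for each other treatment. At unadjusted p under 0.05 the background was 5.36% for clenbuterol, 4.81% for X-rays, 2.82% for tempol, 3.46% for BSO and 3.98% for tempol plus BSO. Over the 6 contused groups the F test found 0 of the 6 genes past the threshold (0.0% of all probe sets) and 1 at unadjusted p under 0.05, Tlr2 (0.0298), where 5.6% of all probe sets were.

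The Tlr2 signals after clenbuterol were 63.2 and 109.9, below those of all 14 other contused arrays, which began at 157.7. Of all probe sets 1.39% had the clenbuterol pair lowest in this way, and of the 6 genes only Tlr2 did. The difference from untreated contusion was -2.16 ± 0.72 (4.47-fold lower, 95% interval -3.67 to -0.65, unadjusted p = 0.00753, adjusted p = 0.787). Beside it, 6 of 8 macrophage markers were lower (median -1.28 against -0.03 over all genes). By limma 0 of them passed and 5 had unadjusted p under 0.05, where 5.36% of all probe sets did. Of 6 neutrophil markers 5 were lower (-0.47). Microglia markers were mixed, with 4 higher and 3 lower (0.23), and all 6 oligodendrocyte markers were higher (0.59). The part of these cells in the Tlr2 level was not tested. The clenbuterol arrays disagreed for other genes. Clenbuterol 1 had the lowest Myd88 signal of all contused arrays (422.3, against 723.7 on clenbuterol 2) and the highest Nfkbia signal (658.4 against 250.5). Against untreated contusion Myd88 was at -0.85 ± 0.71 and Nfkbia at 0.62 ± 0.90. Without clenbuterol 1 the latter difference was -0.07.

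X-rays gave the highest Cd14 signals of the series, 757.4, 804.7 and 866.2, above all 13 other contused arrays, which reached 617.6. Such a separation held for 0.445% of all probe sets, and for none of the other 5 genes. Against untreated contusion Cd14 stood 0.86 ± 0.47 higher (95% interval -0.12 to 1.85, adjusted p = 1.0). Against the 5 other contused groups, a comparison chosen after the values were seen, it stood 0.94 ± 0.33 higher (unadjusted p = 0.0108, adjusted p = 0.671), where 0.00644% of all probe sets passed and 6.39% had unadjusted p under 0.05. Beside it, 5 of 6 neutrophil markers were higher (median 0.58, 0 passed by limma, 2 at unadjusted p under 0.05), with mean log2 signals that overlapped, 8.16 to 8.52 on the X-ray arrays and 7.37 to 8.35 on the other contused arrays. Also higher were 7 of 8 macrophage markers (median 0.50), 6 of 7 astrocyte markers (0.61) and 6 of 6 oligodendrocyte markers (0.45), against 0.02 over all genes, with 0 of them past the threshold by limma and 0, 2 and 1 at unadjusted p under 0.05. Microglia markers were mixed, with 3 higher and 4 lower (median -0.07), as were T cell markers, with 2 higher and 3 lower (-0.33). Of 5 endothelial markers 4 were higher (0.58), and of 7 neuronal markers 4 were (0.10). The part of these cells in the Cd14 level was not tested. Lbp went the other way after X-rays, at 154.5, 246.9 and 198.6 signal units, which is -0.72 ± 0.47 from untreated contusion and -0.63 ± 0.33 from the 5 other groups (adjusted p of 1.0 and 0.826). Nfkbia after X-rays (541.2, 408.7 and 328.8) was 0.66 ± 0.82 above untreated contusion.

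After tempol, BSO and their combination each of the 6 genes differed from untreated contusion by less than the standard error of the difference. The largest difference was that of Tlr2 after tempol, -0.61 ± 0.66 (95% interval -1.99 to 0.77). The 23 differences of under 0.5 in size over all 5 treatments ran from -0.35 to 0.39. With 2 untreated arrays the intervals are wide, for instance -1.03 to 0.94 for Cd14 after tempol and -2.08 to 1.37 for Nfkbia after BSO, and for each of the 30 differences but 1, that of Tlr2 after clenbuterol, they include 0. The tempol by BSO interaction, which asks whether tempol acted differently once glutathione synthesis was blocked, gave 0 of 6 past the threshold by limma (0.0% of all probe sets) and 0 at unadjusted p under 0.05 (3.44% of all probe sets), with 1.00 ± 0.88 for Tlr2, 0.63 ± 0.87 for Myd88 and 0.76 ± 1.10 for Nfkbia.

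**Figure D3:**
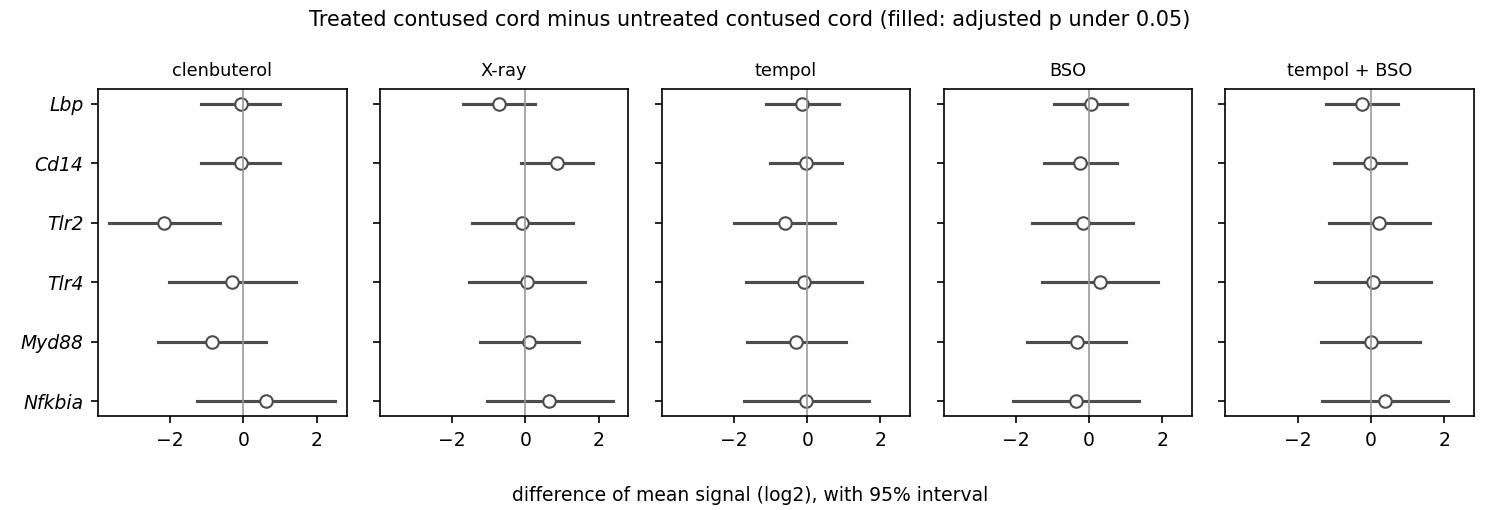
Difference of mean log2 signal from untreated contusion (x axis) for each gene (y axis) after each of the 5 treatments, with 95% intervals; open points have adjusted p of 0.05 or more. All points are open, and Tlr2 after clenbuterol (-2.16) lies farthest from 0.

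Ordered by group mean, Cd14 ran from X-ray (9.66 ± 0.10, SD, n = 3) through contusion, tempol plus BSO, tempol, clenbuterol and BSO (8.80 to 8.56) to laminectomy (7.76 ± 0.22) and normal cord (7.20 ± 0.59). Of its 7 neighbouring pairs 3 did not overlap, X-ray above contusion, BSO above laminectomy and laminectomy above normal. The order of Lbp began with laminectomy (8.83 ± 0.33), BSO (8.37 ± 0.55) and contusion (8.33 ± 0.37, n = 2), and ended with X-ray (7.62 ± 0.34) and normal cord (6.43 ± 0.63). Only the last pair did not overlap. For Tlr2, Myd88 and Nfkbia all 7 neighbouring pairs overlapped, and for Tlr4 all but BSO (8.73 ± 0.09) above tempol plus BSO (8.48 ± 0.19). Tlr2 was highest in tempol plus BSO (8.77 ± 0.82), Myd88 in X-ray (10.07 ± 0.35) and Nfkbia in X-ray (8.71 ± 0.36). Gaps between groups this small are not rare. Laminectomy lay wholly above normal cord for 4.43% of all probe sets, and untreated contusion above normal cord for 10.6%. The share for neighbours sorted by mean was not counted, so the pairs that did not overlap are a description only.

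Further genes of the pathway were read from 6 lists and compared between contused and uncontused groups, where 0.319% of all probe sets passed and 10.4% had unadjusted p under 0.05. Of the receptor adaptors and kinases 15 of 17 were measured, and 0 passed by limma in either direction, with 1 at unadjusted p under 0.05. That one was Irak2, a kinase-like relay below MyD88, at 1.58 ± 0.45 (adjusted p = 0.17). Next by p was Tab2, a scaffold of the kinase TAK1, at -0.42 ± 0.21. Of the other Toll-like receptors and relatives 8 of 15 were measured, with 0 passing and 0 at unadjusted p under 0.05, and of the NF-κB subunits 4 of 5, likewise with 0 and 0. Il1rap, the shared chain of interleukin-1 receptors, stood at 0.49 ± 0.26 and the MD-1 gene Ly86 at -0.45 ± 0.31. Relb, a subunit of the alternative pathway, stood at 0.52 ± 0.32 and Rela, the main activating subunit, at 0.29 ± 0.33. Among the feedback inhibitors other than Nfkbia 15 of 16 were measured, 0 passed by limma and 2 had unadjusted p under 0.05. They were Dusp1, a phosphatase of stress kinases (0.63 ± 0.25, adjusted p = 0.355), and Zfp36, which destabilizes cytokine messages (0.71 ± 0.31, adjusted p = 0.429).

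Of 19 genes that NF-κB drives, all measured, 4 rose and 0 fell. In all 13 were higher and 6 lower, the latter between -0.69 and -0.07, with a median of 0.68 over the list against 0.01 over all genes. By limma 10 had unadjusted p under 0.05, where 10.4% of all probe sets did. The lower ones were Vcam1 (-0.69 ± 0.22, unadjusted p = 0.00616, adjusted p = 0.246 in limma), Icam1, Tnf, Sele, Birc3 and Nos2. Of these only Vcam1 had unadjusted p under 0.05. The 4 that rose were chemokines. Ccl2, which draws monocytes, rose by 4.49 ± 0.37 (adjusted p = 6.75e-06), and its contused arrays (9.26 to 12.31) lay above the uncontused ones (4.54 to 8.97). The neutrophil attractants Cxcl2 (2.98 ± 0.40, adjusted p = 0.00136) and Cxcl1 (2.66 ± 0.46, adjusted p = 0.0123) and the macrophage chemokine Ccl3 (2.22 ± 0.37, adjusted p = 0.00836) followed. Cxcl1 overlapped between the groups, with 5.76 to 10.06 in contused and 4.30 to 6.93 in uncontused arrays. Without normal 1 and laminectomy 2 the list again had 4 genes past the threshold, of which Ccl2 (4.74), Cxcl2 (2.79) and Ccl3 (2.12) were shared, while Cxcl1 was lost (2.18, adjusted p = 0.126) and the cytokine gene Il1b was gained. Laminectomy alone stood above normal cord by 2.93 ± 0.62 for Ccl2 and 2.03 ± 0.68 for Cxcl2. Ccl3 stood at 0.14 ± 0.62 and Cxcl1 at -0.12 ± 0.78 there, and none of these passed by limma. Against laminectomy alone the contused groups stood 3.03 ± 0.48 higher for Ccl2 (adjusted p = 0.0415 in limma). Cxcl2 (1.97 ± 0.52), Cxcl1 (2.72 ± 0.61) and Ccl3 (2.15 ± 0.48) did not pass in that comparison, where 0.0129% of all probe sets did. The acute phase list held genes of the class to which Lbp belongs in the liver. It also held Il6r, Il6st, Osmr and Stat3, which are receptor and signalling genes of that response. Of the list 14 of 16 were measured. In contused against uncontused groups 0 passed by limma and 2 had unadjusted p under 0.05. These were the iron-binding Lcn2 (0.91 ± 0.35) and the receptor chain gene Il6st (0.78 ± 0.32). After laminectomy 10 were higher and 4 lower than in normal cord (median 0.34). By limma 0 passed there and 3 had unadjusted p under 0.05, where 5.59% of all probe sets did. Lcn2 was higher after laminectomy (2.00 ± 0.59, adjusted p = 0.611 in limma) and Il6st lower (-1.06 ± 0.54). From laminectomy to the contused groups Lcn2 differed by -0.09 ± 0.46.

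Markers of several cell types moved beside Cd14. Of 8 measured macrophage markers all were higher in contused groups and 3 passed, Gpnmb (1.82 ± 0.29), Arg1 (1.82 ± 0.28) and Spp1 (1.19 ± 0.24). Against laminectomy alone the contused groups stood 1.77 ± 0.36 higher for Arg1, but 0.38 ± 0.37 for Gpnmb and 0.45 ± 0.31 for Spp1. Laminectomy stood above normal cord by 2.86 ± 0.48 for Gpnmb, 1.47 ± 0.41 for Spp1 and 0.10 ± 0.47 for Arg1. None of these differences passed by limma. The mean log2 signal of the list ran from 7.76 to 9.21 on uncontused and from 8.84 to 10.18 on contused arrays. All 6 measured neutrophil markers were higher and 2 passed, S100a9 (2.70 ± 0.40) and S100a8 (2.00 ± 0.39), with 6.01 to 7.55 against 7.37 to 8.52 for the list. The 7 measured microglia markers, 6 of them higher and 0 past the threshold by limma (0 at unadjusted p under 0.05), ran from 7.21 to 8.34 and from 7.63 to 8.52. Of 3 red cell markers all were higher (median 1.37) and the haemoglobin gene Hbb rose (2.99 ± 0.34, adjusted p = 0.000166 in limma). All 7 neuronal markers were lower (median -0.83) and Nefl fell (-1.49 ± 0.29), all 6 oligodendrocyte markers were lower (median -0.58, 0 past the threshold by limma and 3 at unadjusted p under 0.05), and of 7 astrocyte markers 5 were lower and the water channel gene Aqp4 fell (-1.23 ± 0.26). Without normal 1 and laminectomy 2, Gpnmb, Arg1, S100a9 and Hbb still passed and Lyz2 was gained, while Spp1 (1.17, adjusted p = 0.131), S100a8 (2.02, adjusted p = 0.118), Nefl (-1.23, adjusted p = 0.213) and Aqp4 (-1.15, adjusted p = 0.184) did not pass. After laminectomy the macrophage list had a median of 0.72 above normal cord and the neutrophil list 1.17, with 0 genes past the threshold by limma and 4 and 2 at unadjusted p under 0.05. The 5 liver markers, read because LBP is made mainly in the liver, were mixed after laminectomy, with 2 higher and 3 lower than in normal cord. Their median was -0.69 against -0.01 over all genes, with 0 at unadjusted p under 0.05. The mean log2 signal of the list overlapped, with 6.74 to 8.19 on normal and 7.07 to 8.24 on laminectomy arrays. The part of these cells in the levels of the 6 genes was not tested.

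The genes most alike in pattern were sought among 9075 genes with a mean signal at or above the median of all probe sets, by Pearson correlation over the 22 arrays, which share injury, treatment and array quality. They are given as a description. Nearest to Cd14 were Cxcl2 (r = 0.89), the heme-degrading enzyme gene Hmox1 (0.89) and Srgn (0.88), which encodes the proteoglycan of myeloid granules. Within the 16 contused arrays these were 0.69, 0.61 and 0.64. Nearest to Nfkbia were the small heat shock protein gene Cryab (0.86), Pakap (0.86) and Ifrd1 (0.84), with 0.77, 0.71 and 0.46 within the contused arrays. Nearest to Lbp were Dmkn (0.78), Eya2 (0.78) and the interferon-induced Ifitm1 (0.74), which fell to between 0.35 and 0.49 there. The genes nearest to Tlr4 (Hmcn1, Ecel1 and Htr7, 0.88 to 0.89) reached at most 0.37 within the contused arrays, which leave out the pair of low arrays. Tlr2 was nearest to Itgb1bp1 (0.74), Ceacam1 (0.72) and the neurotrophic cytokine gene Cntf (0.69), and Myd88 to Ermard (0.85), Lpin2 (0.84) and Abhd17b (0.82).

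**Figure D4:**
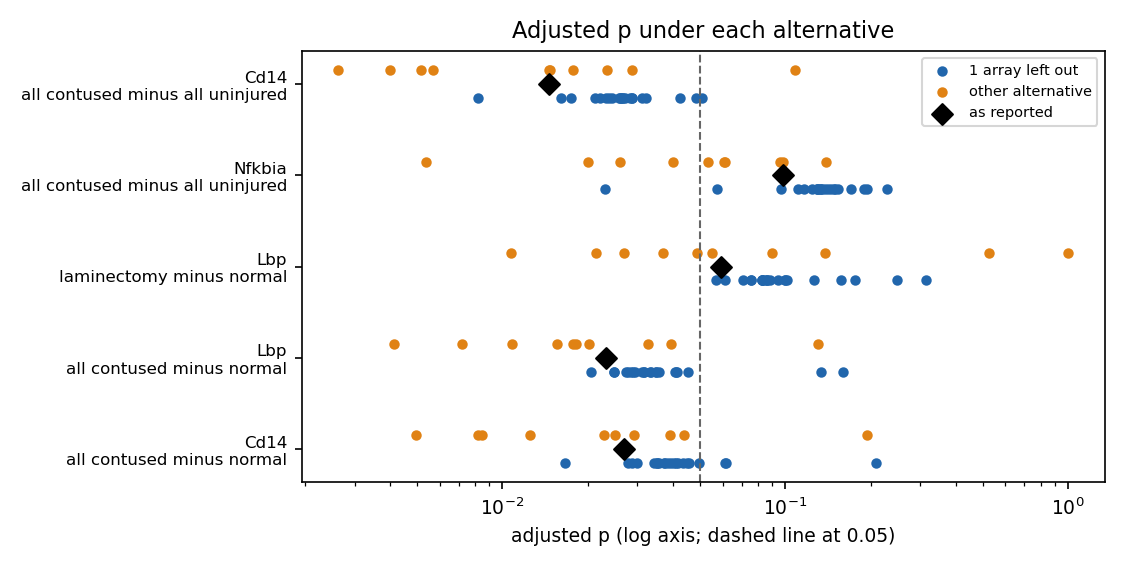
Adjusted p (x axis, log scale) of 5 results (y axis) as reported (diamonds), with 1 array left out (blue) and under the other alternatives (orange); the dashed line is the threshold of 0.05. Cd14 in contused against uncontused groups crosses the line in 2 settings (0.0509 and 0.108), and Nfkbia lies on both sides of it (0.00536 to 0.229).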

How the data were processed

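Signals of 22 arrays were read from 1 table of the deposited values. The authors' deposited values are intensities on a linear scale, 1 per probe set and array. The submitters' processing notes name RMA, without version or role, but the numbers are on no log scale and arrays differ in their distributions. The mean after trimming 2% from both ends was 250.0 to 250.1 on every array. The steps between the scan and these values are not given in the sources used here. They were taken to log2 here. Of 31099 probe sets 57 controls, which hold the only 2 empty cells, were left out. Gene symbols came from GEO's platform annotation (20826 probe sets with 1 symbol, 436 with several, 9780 with none), and 20758 probe sets matched a RefSeq gene by Entrez number, the 6 genes included.

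All arrays entered 1 limma 3.58.1 fit (R 4.3.3) with 8 group means and eBayes (14 residual and 4.713 prior degrees of freedom). Tests were two-sided, with Benjamini-Hochberg adjustment across the 31042 probe sets and a threshold of 0.05. Values after ± are standard errors, or SD where said. The fit was tested on simulated data. The number of arrays limits the precision. The genes, lists, comparisons and alternatives were chosen with earlier results of these data known, and the 3 comparisons of all contused groups with laminectomy, with normal cord and of X-ray with the other contused groups were added after the values were seen, as were the list counts without normal 1 and laminectomy 2. List genes are named where they passed, or as the 2 with the smallest p in contused against uncontused groups where none of a list did; the nearest genes are the top 3 by correlation. Replicate numbers did not pair the arrays: deviations from group means correlated by -0.20 to 0.20 for equal numbers. A gene with several probe sets is represented by the one with the highest mean. Alternatives were another offset, quantile normalization, a filter on low signal, other variance settings, only the compared groups, array weights, a replicate block, the spikes as covariate, means over probe sets and left-out arrays.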

Additional observations from a re-analysis of the deposited data

How the results depend on the processing

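Of 2042 recomputed differences and F tests of single genes, 2001 kept their direction and their side of the threshold, 9 lost and 11 gained a call, and 21 changed sign, none of which was called. The 23 treatment differences and 3 tempol by BSO interactions of under 0.5 in size were left out of the 2042. Changes of sign among those were not counted. Lbp in laminectomy minus normal passed, giving a count of 1 gene, with the logarithm of signal plus 32 (adjusted p = 0.0368), the filter on low signal, trend and robust variances (0.027), the spike covariate (0.0488) and means over probe sets (0.0214). Of these, the filter and the means over probe sets left the difference at 2.41 and adjusted for fewer tests. In contused minus uncontused groups the count was 2 with the filter, array weights or the spike covariate. In contused minus normal it was 1 without laminectomy 2 and normal 1 together and 0 to 2 with 1 array left out. With the replicate block the calls were as reported (Cd14 in contused minus uncontused groups 1.42, adjusted p = 0.0287), so it changed no count; 4 of 22 arrays were closest to their own number.

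In laminectomy minus normal, Nfkbia was 0.01 with the logarithm of signal plus 32, 0.28 with array weights and 0.20 without both arrays that stand apart, Myd88 was 0.00 there, and with 1 array left out Tlr4 ran from -1.26 to 0.46, Myd88 from -0.80 to 0.32 and Nfkbia from -0.69 to 0.88. Without both arrays Tlr4 was -0.23 in contusion minus normal and in contused minus normal (-0.23 to 1.17 and -0.23 to 1.17 with 1 array left out) and -0.00 in contused minus uncontused groups. Nfkbia in clenbuterol minus contusion ran from -0.07 to 1.32. Tlr4 in X-ray minus the other contused groups was -0.01 with the block and -0.05 to 0.19 with 1 array left out. The cause of these changes was not tested. Signals near the lower end, such as Nfkbia on uncontused arrays, are the least certain.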
